A study of Mus musculus with 6 samples.

Results

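The ATF4-CHOP stress transcription arm was followed in 4T1 cells, a mouse mammary carcinoma line, with and without stable expression of METTL7A1, a putative methyltransferase. The arm was taken as 10 named genes of the 48587 gene symbols in the table: Atf4, Ddit3 (encoding CHOP), Chac1, Trib3, Asns, Sesn2, Atf3, Nupr1, Ddit4 and Atf5. All 10 were among the 13166 genes abundant enough to be tested, meaning that 3 or more libraries reached 1 cpm (counts relative to the scaled library size). The genes were selected on the measured difference between METTL7A1 and mock cells, so that difference is given below as a description, without p values, and no support is drawn from it.

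When cells sense unfolded protein in the endoplasmic reticulum (ER), amino acid shortage, haem shortage or double-stranded RNA, a family of kinases phosphorylates the translation initiation factor eIF2. General protein synthesis then slows, while the mRNA of ATF4 is translated more efficiently because of short reading frames in its leader. ATF4 and its target CHOP are basic leucine zipper (bZIP) transcription factors that switch on genes for amino acid supply, redox control, feedback on the kinases and, under lasting stress, cell death. Because ATF4 is controlled largely at translation and only RNA was analysed here, the level of its mRNA is not a measure of its protein.

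Total RNA had been sequenced from 3 METTL7A1 and 3 mock libraries, described as biological triplicates. METTL7A1 cells carried the full-length Mettl7a1 cDNA in pBICEP-CMV-2, a vector with the cytomegalovirus promoter, and the expressed protein is described as FLAG-tagged. Mock cells are described as stable transfectants of the empty vector, and both kinds of cell were kept under G418 selection. Whether the transfectants were pools or single clones is not given in the sources used here, so a difference may belong to the transfected population as well as to METTL7A1, and these cannot be told apart.

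The libraries held 18386780 to 28459338 counts. Mettl7a1 had 29 to 30 counts in the mock libraries and 6355, 11358 and 10398 counts in METTL7A1 replicates 1 to 3 (log2 fold change 8.17, SE 0.143), so each library followed its label. AY036118, a ribosomal repeat gene, took 13.1%, 5.02% and 0.966% of the counts in mock replicates 1 to 3 and 0.502%, 2.57% and 4.53% in METTL7A1 replicates 1 to 3. The mammary epithelial markers Krt8, Krt18, Krt19, Epcam and Cdh1 were abundant, at 46.0 to 623 cpm per group mean, and none of the 5 passed the test. Of 7 markers of leukocytes, endothelium and smooth muscle, only the macrophage marker Cd68 was abundant enough to be tested, and it was higher in METTL7A1 cells (5.42 ± 0.756 against 12.7 ± 1.32 cpm, SD, n = 3 each; log2 fold change 1.23, SE 0.138, edgeR adjusted p = 5.05e-05). The summed level of the 7 markers was 5.40 to 7.31 cpm in mock libraries and 12.4 to 15.01 cpm in METTL7A1 libraries. Without Cd68 it was 0.700 to 1.16 and 1.01 to 1.25 cpm, and the T cell marker Cd3e had 0 counts in all 6 libraries. In bulk RNA, more cells that express a gene and more RNA of it per cell cannot be told apart.

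ATF4 binds, as a dimer with a C/EBP factor, to the C/EBP-ATF response element, a composite of a C/EBP and an ATF site. The 300-base promoter windows of the members, from 250 bases before the annotated start site to 50 after it (RefSeq, build GRCm38.p6), were searched on both strands for the letters TGATGNAA. A match was present in 5 of the 10 members, against 4.51% of 27025 genes with such a window. The members were listed as factors and targets of the ATF4-CHOP arm, so this share describes the list and nothing is read from it. The matches are shown because they mark which members carry the element close to the start site. Each is given 5′ to 3′ on the strand of its gene, with the 8 matched letters in capitals, and in 4 of the 5 the match was on the opposite strand, so that its complement is printed.
Chac1: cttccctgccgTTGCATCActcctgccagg
Trib3: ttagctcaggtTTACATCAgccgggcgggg
Asns: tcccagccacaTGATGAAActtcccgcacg
Atf3: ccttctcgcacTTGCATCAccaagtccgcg
Nupr1: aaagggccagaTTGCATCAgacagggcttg

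These stretches lie at chr2:119351038-119351067 (plus strand) for Chac1, chr2:152344028-152344057 (minus strand) for Trib3, chr6:7693214-7693243 (minus strand) for Asns, chr1:191183425-191183454 (minus strand) for Atf3 and chr7:126625562-126625591 (minus strand) for Nupr1. Counted from the start site as 0, the first matched base was at −193 in Chac1, at −110 in both Atf3 and Nupr1, at −23 in Asns and at 14, past the RefSeq start site, in Trib3. Chac1, Atf3 and Nupr1 held the same 8 letters, TTGCATCA. RefSeq and the count table place the ends of these genes differently: by the table, the matches of Asns, Atf3 and Nupr1 lie inside the gene and those of Chac1 and Trib3 before it. No match was found in the windows of Atf4, Ddit3, Sesn2 and Ddit4 or in either window of Atf5, which says only that these letters are not in those windows. None of the 10 held the full cyclic AMP response element TGACGTCA, which was present in 2.03% of genes.

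**Figure D1:**
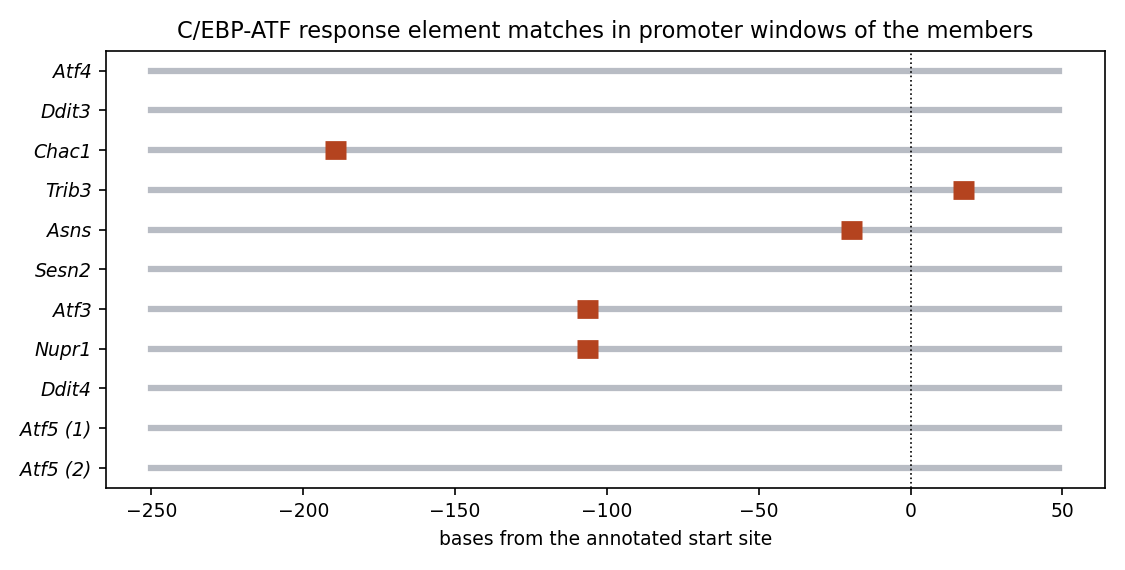
Position of TGATGNAA, on either strand, in the promoter windows of the members. The horizontal axis gives bases from the annotated start site (dotted line), each grey bar is one window and each orange square a match. The 5 matches lie in Chac1, Trib3, Asns, Atf3 and Nupr1, from −193 to 14.

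The levels of all 10 genes were higher in METTL7A1 than in mock cells, and in each of them the lowest METTL7A1 library lay above the highest mock library. All 10 had an adjusted p under 0.05 in the direction of METTL7A1, where 21.1% of all tested genes did and 20.9% were lower. The groups did not overlap for any of the 10, as for 25.9% of all tested genes with METTL7A1 above mock. The thresholds of the study (adjusted p under 0.01 and a log2 fold change over 1.5) were passed by 6 of them, Ddit3, Chac1, Trib3, Atf3, Nupr1 and Ddit4, and by 1.61% of all tested genes in that direction. The median log2 fold change of the 10 was 1.83 and that of all tested genes −0.03. As the members were listed for this difference, these counts describe the list and nothing is read from them.

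**Figure D2:**
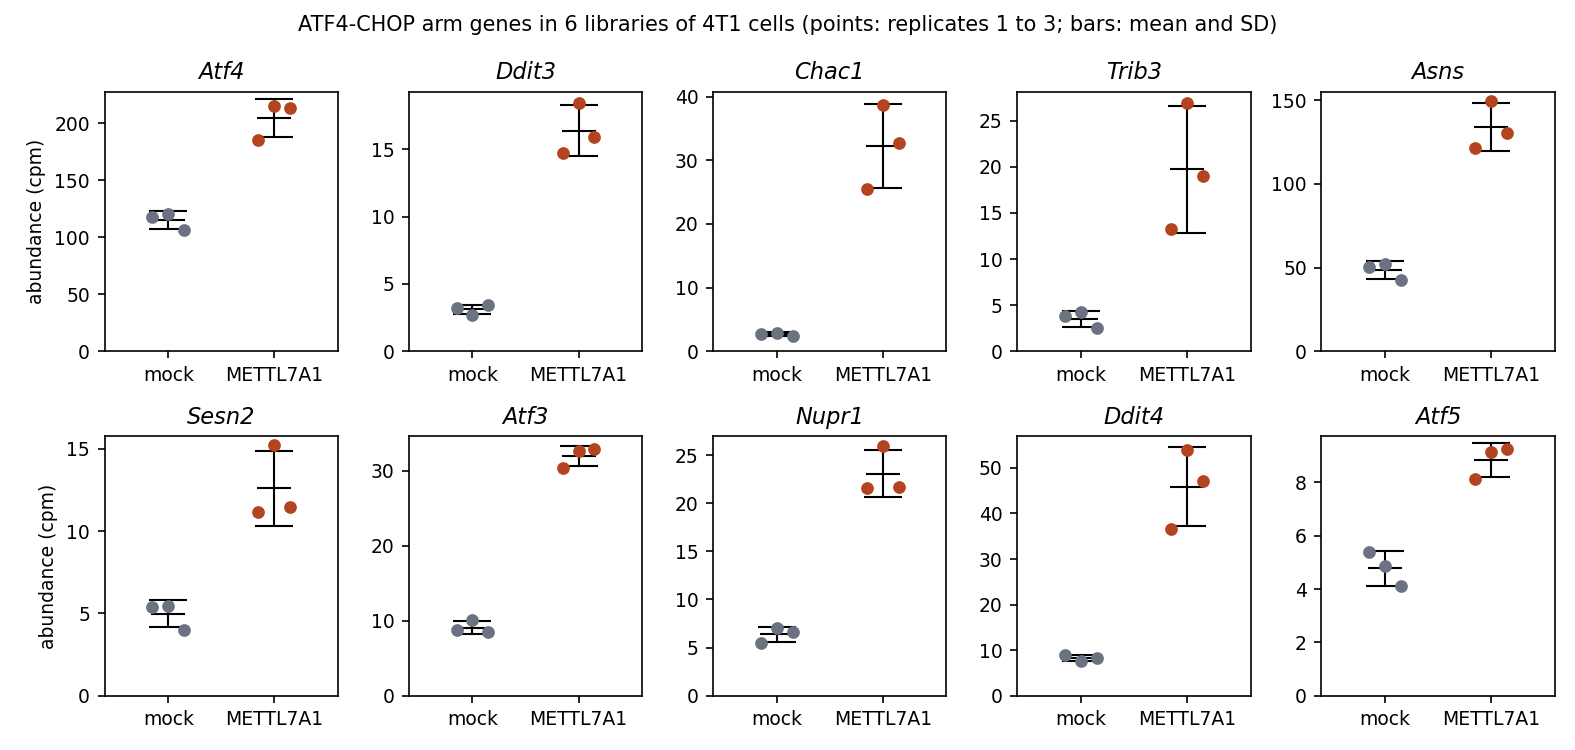
Abundance in cpm (vertical axis, each panel with its own scale from 0) of the 10 genes in mock and METTL7A1 cells. Points are replicates 1 to 3 from left to right and bars give mean and SD. In every panel the 3 METTL7A1 points lie above the 3 mock points, and replicate 1 is the lowest METTL7A1 point.

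Among the transcription factors, Atf4 itself had the smallest log2 fold change, close to that of Atf5, and its target Ddit3 the largest. Atf4 (chr15:80255184-80257540, plus strand) was at 118, 121 and 106 cpm in mock replicates 1 to 3 and at 185, 216 and 214 cpm in METTL7A1 replicates 1 to 3. The means were 115 ± 7.84 cpm in mock and 205 ± 17.0 cpm in METTL7A1 cells (SD, n = 3 each), and the log2 fold change came to 0.83 ± 0.084 (SE). The spread within each group was small beside the distance between them, and 5.07% of all tested genes had a larger log2 fold change.

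Ddit3 (chr10:127290774-127296288, plus strand) encodes CHOP, a pro-apoptotic bZIP factor that is nearly silent in unstressed cells. It was at 3.22, 2.72 and 3.41 cpm in the mock libraries and at 14.7, 18.4 and 15.9 cpm in the METTL7A1 libraries, and the log2 fold change came to 2.40 ± 0.142. (SE) The lowest METTL7A1 library was 4.32 times the highest mock library. Ddit3 shares 68 exon bases (7.64% of its exon length) with the methionyl-tRNA synthetase gene Mars on the opposite strand, which had 2607 to 6092 counts, and 13 exon bases with Gm4189.

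Atf3, a bZIP factor of the same family that is induced early in many stress responses, had the tightest METTL7A1 values of the 10. Its level (chr1:191170296-191218039, minus strand) was 8.73, 10.0 and 8.43 cpm in mock replicates 1 to 3 and 30.4, 32.6 and 32.9 cpm in METTL7A1 replicates 1 to 3. The coefficient of variation was 9.47% in mock and 4.30% in METTL7A1 libraries, and the log2 fold change was 1.82 ± 0.0957. (SE)

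Atf5, whose mRNA has short leader reading frames as Atf4 does, was the other factor with a small difference. Its level (chr7:44812256-44816658, minus strand) was 5.40, 4.86 and 4.10 cpm in mock and 8.12, 9.12 and 9.27 cpm in METTL7A1 libraries. The log2 fold change was 0.89 ± 0.143 (SE), and the lowest METTL7A1 library was 1.504 times the highest mock library, the smallest gap of the 10. Atf5 shares 82 exon bases (4.11%) with Nup62 and Il4i1 on the opposite strand.

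Nupr1 (chr7:126623249-126625676, minus strand), a small stress-induced nuclear protein that acts on transcription, stood between these. It was at 5.51, 7.0003 and 6.59 cpm in mock and at 21.6, 25.9 and 21.7 cpm in METTL7A1 libraries, and the log2 fold change came to 1.85 ± 0.122. (SE) METTL7A1 replicates 1 and 3 were nearly equal and replicate 2 lay above them.

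The targets that feed back on stress and growth signalling were Trib3, Sesn2 and Ddit4. Trib3, a pseudokinase that binds AKT and restrains ATF4 and CHOP, was the most variable member. Its level (chr2:152337422-152344032, minus strand) was 3.82, 4.24 and 2.57 cpm in mock and 13.3, 26.9 and 19.0 cpm in METTL7A1 libraries, with METTL7A1 replicate 2 well above replicate 3 and replicate 3 above replicate 1. The coefficient of variation was 24.5% in mock and 34.7% in METTL7A1 libraries, and the log2 fold change was 2.49 ± 0.255. (SE)

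Ddit4 and Sesn2 both encode inhibitors of the growth kinase complex mTORC1. Ddit4 (REDD1, chr10:59949675-59951770, minus strand) was at 8.95, 7.70 and 8.27 cpm in mock and at 36.7, 54.0 and 47.0 cpm in METTL7A1 libraries, and the log2 fold change came to 2.48 ± 0.139. (SE) Sesn2 (sestrin 2, a leucine sensor, chr4:132492032-132510501, minus strand) was at 5.40, 5.48 and 4.02 cpm in mock and at 11.1, 15.2 and 11.5 cpm in METTL7A1 libraries, and the log2 fold change came to 1.35 ± 0.167. (SE) The METTL7A1 libraries of Sesn2 began at 2.03 times the highest mock library, against 4.10 times for Ddit4.

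The metabolic targets were Asns and Chac1. Asns, which makes asparagine from aspartate, was the second most abundant member at 50.5, 52.5 and 42.8 cpm in mock and 121, 150 and 131 cpm in METTL7A1 libraries (chr6:7675169-7693254, minus strand). Its log2 fold change was 1.46 ± 0.099. (SE) Chac1, which degrades glutathione in the cytosol, showed the largest fold of the 10. Its level (chr2:119351229-119354381, plus strand) was 2.78, 2.92 and 2.37 cpm in mock and 25.5, 38.7 and 32.7 cpm in METTL7A1 libraries. The ratio of the means was 12.0, the log2 fold change was 3.59 ± 0.170 (SE), and 0.137% of all tested genes had a larger one.

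The members therefore differed among themselves from a log2 fold change of 0.83 in Atf4 to 3.59 in Chac1. The 5 with a C/EBP-ATF element in the window had log2 fold changes of 1.46 to 3.59 and the 5 without it 0.83 to 2.48, so the ranges overlapped. Per length of exon sequence (cpm per kilobase), the order of the levels in mock cells was Atf4 (66.7 ± 4.55, SD, n = 3), Asns (22.5), Nupr1 (7.68), Ddit4 (4.93), Atf3 (4.21), Ddit3 (3.50), Atf5 (2.40), Trib3 (1.75), Chac1 (1.64) and Sesn2 (1.43). The library ranges of Ddit4 and Atf3 overlapped, as did those of neighbouring genes from Atf5 to Sesn2. In METTL7A1 cells the order was Atf4 (119 ± 9.86, SD, n = 3), Asns (61.9), Nupr1 (27.8), Ddit4 (27.2), Chac1 (19.7), Ddit3 (18.4), Atf3 (14.8), Trib3 (9.73), Atf5 (4.43) and Sesn2 (3.62). Here the ranges of neighbouring genes overlapped from Nupr1 to Ddit3 and between Atf5 and Sesn2. Chac1 moved from place 9 to place 5, and the first 4 places were the same in both groups.

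The proportions between the factor and its targets also differed between the groups. Per length, Ddit3 was at 5.29%, 4.35% and 6.23% of the level of Atf4 in mock replicates 1 to 3 and at 15.4%, 16.6% and 14.4% in METTL7A1 replicates 1 to 3. Chac1 was at 2.35% to 2.55% of Atf4 in mock and at 14.5% to 18.9% in METTL7A1 libraries. Asns was at 32.2% to 34.6% and 48.8% to 55.3%. Atf5 kept pace with Atf4, at 3.34% to 3.96% in mock and 3.66% to 3.79% in METTL7A1 libraries, and for this ratio the groups overlapped. Ddit3, Chac1 and Asns made up a larger proportion relative to Atf4 in every METTL7A1 library than in any mock library. This restates that their log2 fold changes (2.40, 3.59 and 1.46) were larger than that of Atf4 (0.83). As the members were listed for this difference, nothing further is read from the ratios, which were computed for these genes and Atf5 only.

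The METTL7A1 libraries ranked alike across the members at the low end. METTL7A1 replicate 1 was the lowest of its group for 10 of 10 members. Among all 2778 genes that were higher in METTL7A1 cells it was the lowest for 48.1%, and among all tested genes for 41.3%. METTL7A1 replicate 2 was the highest for 8 members and replicate 3 for 2. The mock libraries were more mixed, with replicate 2 the highest for 7 members and the lowest for 2, and replicate 3 the lowest for 7 and the highest for 1. The median log2 ratio of the members to their mock mean was 1.75, 1.94 and 1.81 in METTL7A1 replicates 1 to 3 and 0.05, 0.12 and −0.15 in mock replicates 1 to 3. Mettl7a1 itself was at 342, 384 and 421 cpm in METTL7A1 replicates 1 to 3, lowest in the same replicate 1 but highest in replicate 3. METTL7A1 replicate 1 also had the fewest counts in all and the lowest share of AY036118, and the part of these in the ranking was not tested.

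The genes whose profile over the 6 libraries lay closest to that of Atf4 (smallest root mean square difference of centred log2 cpm) were Eif2ak3, at 0.0243, Sqstm1, at 0.0288, and Sema3e, at 0.0382. Closest to Ddit3 were Bcl2l15, at 0.104, the member Ddit4, at 0.113, and Ehf, at 0.132. The distances to Ddit3 were larger throughout, and Ddit3 had 237 counts per library on average against 3807 for Atf4. The centred profiles include the difference between METTL7A1 and mock, for which the members were listed, so a small distance also reflects a similar fold change. Eif2ak3, Sqstm1 and Sema3e had log2 fold changes of 0.82, 0.82 and 0.86, where Atf4 was at 0.83.

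The genes next to the members on the chromosome were examined in the same fit. Of the 20 nearest tested genes, 1 on each side of each member, 8 were called higher at an adjusted p under 0.05 (edgeR quasi-likelihood test), 2 lower and 10 not called, with a median log2 fold change of 0.27. Over all tested genes, 21.1% were called higher and 20.9% lower. In 9 of 10 cases the member lay above both flanking genes. Chac1, at 3.59, stood between the Notch ligand gene Dll4, which fell (log2 fold change −0.82, SE 0.118, edgeR adjusted p = 0.000255), and the chromatin remodeller gene Ino80, at 0.18 (edgeR adjusted p = 0.157). The exception was Atf3, whose neighbour Gm38161 had a log2 fold change of 2.81 (SE 0.353) on a mean of 16.2 counts.

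Some members lay in stretches of chromosome where most genes were shifted a little. Over the 40 nearest abundant genes on the chromosome, the median log2 fold change was 0.53 around Ddit3, 0.50 around Ddit4, 0.30 around Chac1, 0.24 around Asns and 0.22 around both Atf4 and Trib3. It lay between −0.16 and 0.03 around Nupr1, Sesn2, Atf5 and Atf3. With this median subtracted in the fit, the log2 fold change was 0.61 for Atf4, 1.87 for Ddit3, 1.97 for Ddit4 and 3.29 for Chac1, and all 10 members were still above 0.60. Mbd6 and Mars, the neighbours of Ddit3, rose by 0.68 and 0.58 on the log2 scale (SE 0.148 and 0.086, edgeR adjusted p = 0.00366 and 0.000315), close to the median around them.

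**Figure D3:**
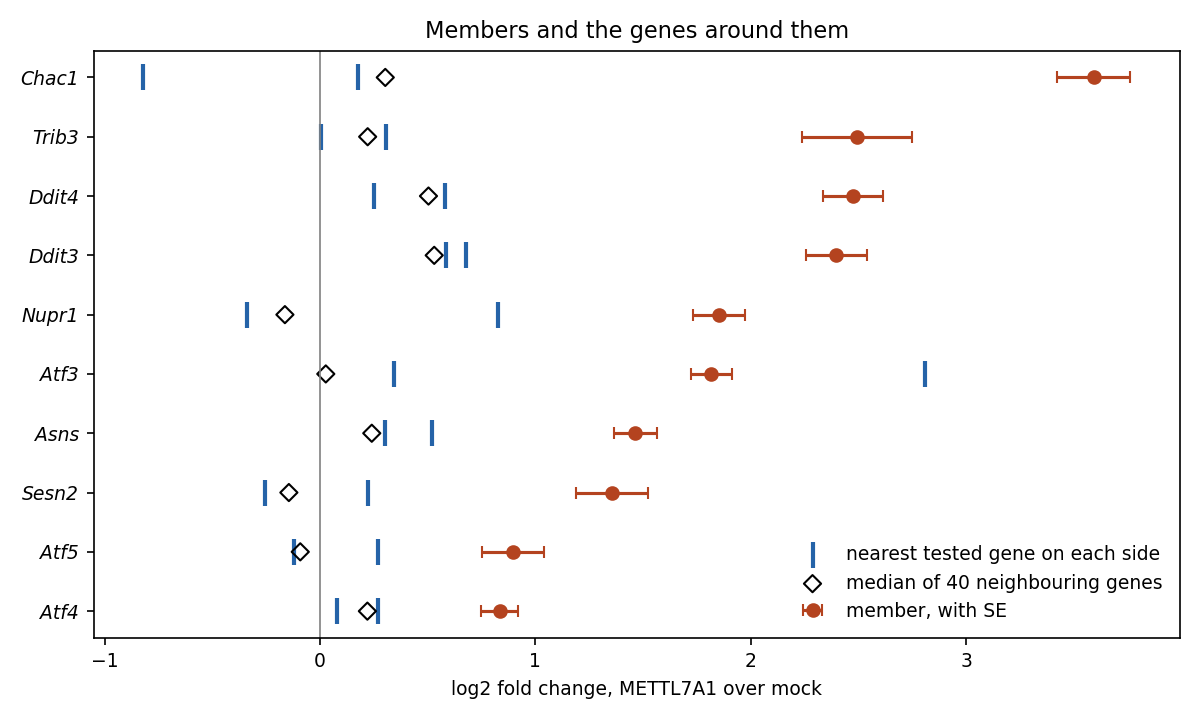
Log2 fold change, METTL7A1 over mock (horizontal axis), of the 10 members (circles with SE), of the nearest tested gene on each side (blue bars) and the median of the 40 nearest abundant genes (diamonds). Every member except Atf3 lies to the right of both of its neighbours, and the diamonds lie between −0.16 and 0.53.

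Upstream of ATF4, the RNAs for eIF2, its kinases and the factors that act with them moved in both directions. Of 18 genes for eIF2 kinases, eIF2 and eIF2B subunits, phosphatase subunits and kinase cofactors, 8 rose, 7 fell and 3 did not pass the test (edgeR quasi-likelihood test), with a median log2 fold change of 0.02, beside 21.1% higher and 20.9% lower over all tested genes. Among the 4 kinases, Eif2ak3 (PERK, the ER sensor) rose from 15.7 to 27.6 cpm (log2 fold change 0.82, SE 0.0912, edgeR adjusted p = 4.49e-05), with a median of −0.05 around it. Eif2ak4 (GCN2, the sensor of uncharged tRNA) rose by 0.35 (SE 0.075, edgeR adjusted p = 0.00314) and Eif2ak1 (HRI, the haem sensor) fell by 0.32 on the log2 scale (SE 0.0782, edgeR adjusted p = 0.00684). The medians around these, 0.32 and −0.32, were of the same size, and neither gene passed the test with that median subtracted. Eif2ak2 (PKR, the sensor of double-stranded RNA) was at 0.05 (SE 0.0792, edgeR adjusted p = 0.674). Eif2ak1 also lost its call without METTL7A1 replicate 2 (edgeR adjusted p = 0.0519). It shares 11.3% of its exon bases with Aimp2 on the opposite strand, which had 554 to 1258 counts.

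The other genes of the list that rose most were Ppp1r15a and Eif2s2, and those that fell most Eif2b2, Eif2s1 and Eif2b1. Ppp1r15a (GADD34, which directs the phosphatase to eIF2 and is itself a target of the arm) was at 0.67 (SE 0.113, edgeR adjusted p = 0.000767). Eif2s2, the beta subunit of eIF2, was at 0.56 (edgeR adjusted p = 0.000257), while Eif2s1, the alpha subunit that carries the phosphorylation site, was at −0.70 (edgeR adjusted p = 8.24e-05). Eif2b2 and Eif2b1, subunits of the exchange factor eIF2B, were at −0.71 and −0.50 (edgeR adjusted p = 0.000347 and 0.000754). With the median of the neighbours subtracted, 8 of the 18 genes passed the test, 3 higher and 5 lower, and Eif2s1 (−0.24) and Eif2b2 (−0.23) were no longer among them, while Eif2ak3 was at 0.87.

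**Figure D4:**
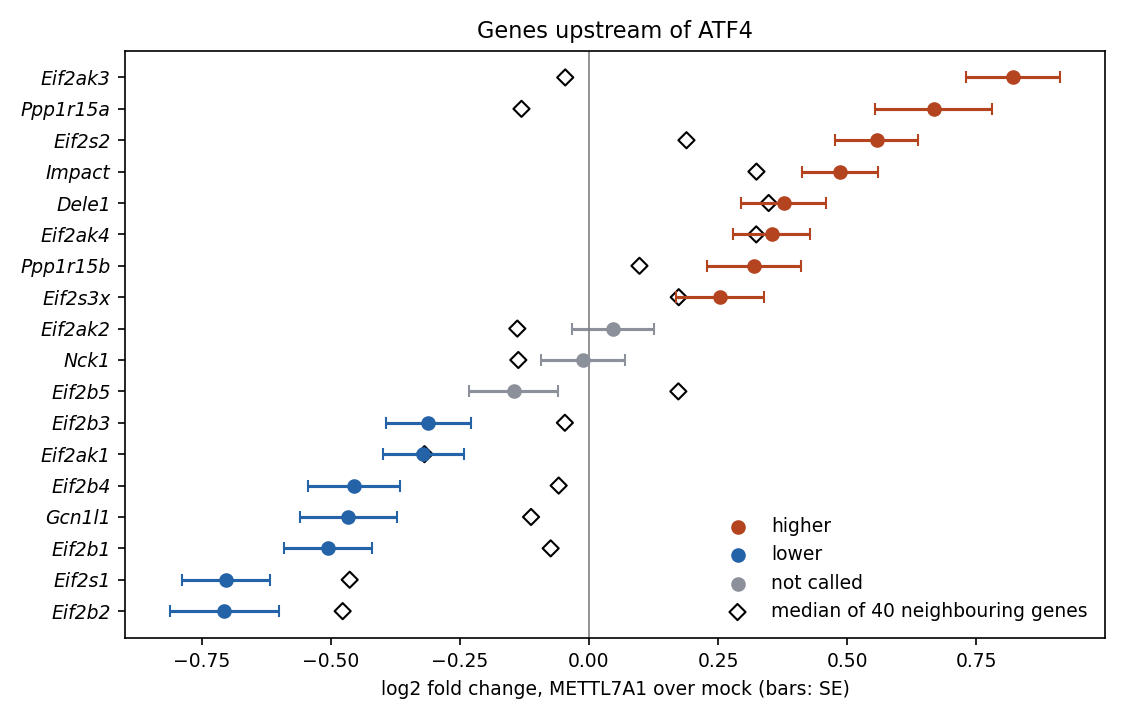
Log2 fold change, METTL7A1 over mock (horizontal axis, bars are SE), of the 18 genes of eIF2 phosphorylation control, coloured by call at an adjusted p under 0.05, with the median of the 40 nearest abundant genes as diamonds. Eif2ak3 lies highest at 0.82 with its diamond near 0, while the diamonds of Eif2ak1 and Eif2ak4 lie on or beside their points.

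Of 22 bZIP factors outside the 10 members, from the C/EBP, ATF and CREB families with Jdp2, the BATF factors and Nfe2l2, 16 were abundant enough to be tested, 8 rose, 1 fell and 7 did not pass the test, with a median log2 fold change of 0.25 (all tested genes: 21.1% higher, 20.9% lower). Jdp2, a close relative of Atf3, rose by 0.85 (SE 0.114, edgeR adjusted p = 0.000164) in a stretch whose median was −0.50. Cebpd and Atf2 followed at 0.61 and 0.52 (edgeR adjusted p = 0.0387 and 0.000223), and Atf6b fell by 0.24 on the log2 scale (edgeR adjusted p = 0.0412). The calls of Cebpd and Atf6b were each lost in 4 of the 6 fits that leave out 1 library. Cebpd shares 14.9% of its exon bases with Spidr on the opposite strand, which had 322 to 748 counts. Batf3, named after its values were seen, had the largest log2 fold change of the list at 2.49 on a mean of 31.5 counts. The number called was 3 without METTL7A1 replicate 2, 4 without METTL7A1 replicate 3 and 5 with the median of the neighbours subtracted.

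A further list held ATF4 targets for amino acid synthesis, transport and tRNA charging. Of 27 such genes, 26 were tested, 20 rose, 1 fell and 5 did not pass the test, with a median log2 fold change of 0.58, where 21.1% of all tested genes were higher and 20.9% lower. Slc7a11, the cystine carrier xCT, rose most, from 7.23 to 62.6 cpm (log2 fold change 3.11, SE 0.151, edgeR adjusted p = 1.31e-07). Slc6a9, a glycine transporter, and Pycr1, an enzyme of proline synthesis, rose by 2.15 and 2.11 (SE 0.161 and 0.266, edgeR adjusted p = 2.69e-06 and 0.000109). These 3 and Gpt2, an alanine transaminase named after its values were seen (log2 fold change 1.74), passed the thresholds of the study. Slc6a9 shares 38.8% of its exon bases with Ccdc24 on the opposite strand, which had 46 to 93 counts. The gene that fell was Wars, the tryptophanyl-tRNA synthetase (log2 fold change −0.34, edgeR adjusted p = 0.00684), and with the median of its neighbours subtracted it was at −0.07 and not called. In that fit 16 genes of the list were called higher and 0 lower.

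Among 18 other targets in stress signalling, redox, secretion and cell death, 14 were tested, 9 rose, 1 fell and 4 did not pass the test, with a median log2 fold change of 0.55 (all tested genes: 21.1% higher, 20.9% lower). Herpud1, a component of ER-associated degradation, was at 1.49 (SE 0.115, edgeR adjusted p = 3.49e-06). Eif4ebp1, a repressor of cap-dependent translation, and Vegfa, an angiogenic growth factor, were at 1.19 and 1.16 (SE 0.110 and 0.102, edgeR adjusted p = 1.32e-05 and 9.44e-06). Stc2, named after its values were seen, was the gene that fell (log2 fold change −0.75 on a mean of 48 counts, edgeR adjusted p = 0.0216), and no gene of the list was called lower in 4 of the 6 fits that leave out 1 library. The secreted stress hormones Gdf15 and Fgf21 and the death gene Pmaip1 were under the abundance filter, with means of 1.83, 3.67 and 1 counts per library. Gdf15 had 0 counts in each mock library and 3, 5 and 3 in METTL7A1 replicates 1 to 3, and Fgf21 had 0, 1 and 0 in mock and 5, 11 and 5 in METTL7A1 libraries. With no abundance filter, 17 genes of this list were tested and 11 called higher.

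**Figure D5:**
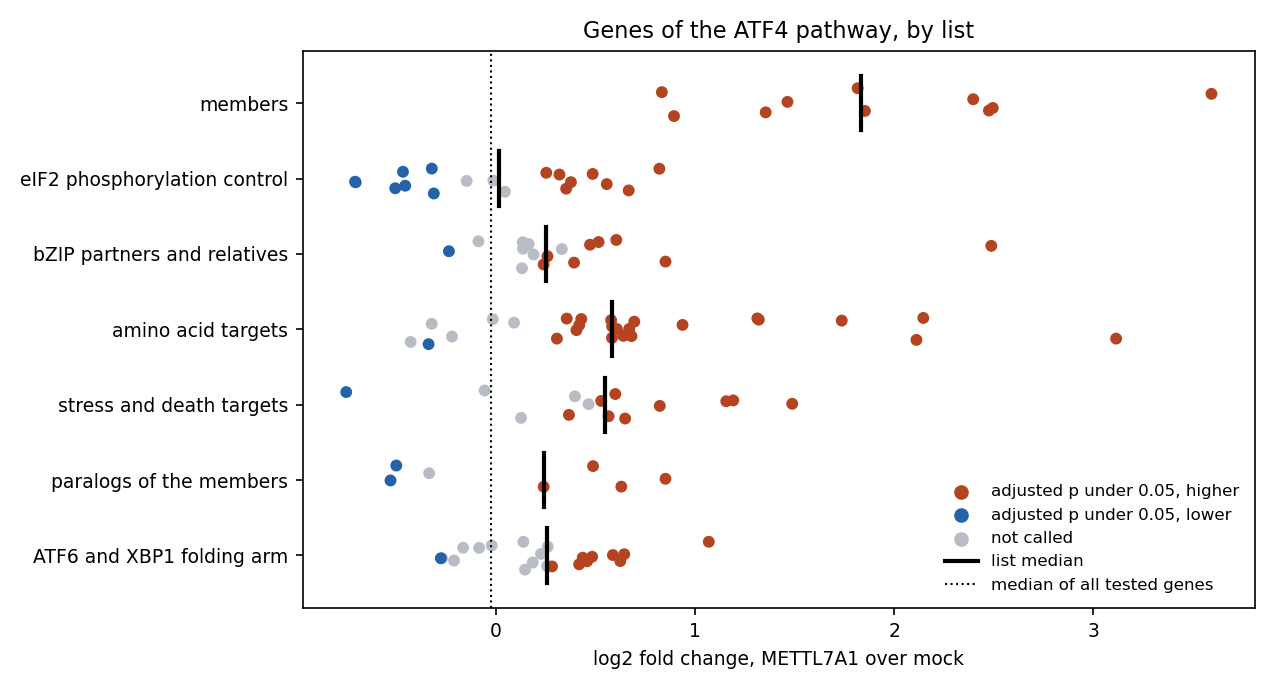
Log2 fold change, METTL7A1 over mock (horizontal axis), of each tested gene of the members and the 6 lists of related genes, coloured by call at an adjusted p under 0.05. Black bars are list medians, from 0.02 for eIF2 phosphorylation control to 0.58 for amino acid targets and 1.83 for the members, and the dotted line is the median of all tested genes at −0.03.

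The nearest relatives of the members moved in both directions. Of 9 paralogs, 7 were tested, 4 rose, 2 fell and 1 did not pass the test, with a median log2 fold change of 0.24 (all tested genes: 21.1% higher, 20.9% lower). Among those that rose, Jdp2 and Cebpg were also counted with the bZIP factors above. Trib1 rose by 0.63 (SE 0.071, edgeR adjusted p = 5.01e-05) and Trib2 fell by 0.53 on the log2 scale (SE 0.146, edgeR adjusted p = 0.0134), where Trib3 was at 2.49. Sesn3 rose by 0.49 (edgeR adjusted p = 0.000651) and Sesn1 fell by 0.50 on the log2 scale (edgeR adjusted p = 0.00119), where Sesn2 was at 1.35. Chac2, the constitutive relative of Chac1, was at −0.33 (SE 0.144, edgeR adjusted p = 0.083), and it was called lower (edgeR adjusted p = 0.0462) without mock replicate 3. Cebpg, a C/EBP factor that pairs with ATF4, was at 0.24 (edgeR adjusted p = 0.0175), a call lost in 2 of the 6 fits that leave out 1 library. Ddit4l and Nupr1l were under the abundance filter. Trib2 and Sesn1 lay in stretches with medians of −0.47 and −0.52, and with these subtracted they were at −0.06 and 0.02 and not called.

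The other arm of the ER stress response, the chaperones and degradation factors driven mainly by ATF6 and XBP1, held genes with higher levels and genes that did not pass the test. Of 22 genes, 21 were tested, 9 rose, 1 fell and 11 did not pass the test, with a median log2 fold change of 0.26, where 21.1% of all tested genes were higher and 20.9% lower. Hsp90b1, an ER chaperone, was at 1.07 (SE 0.108, edgeR adjusted p = 2.41e-05), in a stretch with a median of 0.49. Sdf2l1 and Pdia3, a chaperone cofactor and a disulfide isomerase, were at 0.64 and 0.62 (edgeR adjusted p = 0.00513 and 0.000417). Sel1l, part of the ER degradation complex, fell by 0.28 on the log2 scale (edgeR adjusted p = 0.00941), and it was at 0.19 and not called with the median of its neighbours subtracted. In that fit 12 genes of the list were called higher and 0 lower, with a median log2 fold change of 0.39. None of the 21 passed the thresholds of the study in the main fit.

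The promoter windows of the lists differed in which element they held. The ER stress response element, CCAAT and CCACG separated by 9 bases, was present in 9 of the 19 genes of the ATF6 and XBP1 arm with a window, in 0 of the 10 members and in 0.137% of all genes. The C/EBP-ATF element was present in 0 of those 19 genes and in 4.51% of all genes with a window. It was present in 6 of 21 amino acid targets with a window (Pycr1, Pck2, Slc7a11, Slc1a4, Gars and Aars) and in 3 of 14 of the stress and death targets (Fgf21, Vldlr and Herpud1). In the remaining lists it was present in 1 of 14 genes of eIF2 phosphorylation control (Eif2s3x), 1 of 16 bZIP factors (Jdp2) and 1 of 8 paralogs (again Jdp2). The target lists and the ATF6 and XBP1 arm were drawn up by the factors held to drive their genes. A difference in elements between them therefore describes how the lists were made. These matches are descriptions of the sequence and were not tested against the differences in level.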

How the data were processed

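Total RNA of 3 METTL7A1 and 3 mock libraries of 4T1 cells was analysed. Libraries had been made with a stranded kit after depletion of ribosomal RNA. The authors trimmed reads with BBDuk, aligned them with STAR 2.5.3a to mm10 (GRCm38) and counted them per gene with featureCounts. The deposited values are raw counts, beside exon positions and exon length (annotation values). The strand setting is not given in the sources used here. AY036118 had more counts than Gm42418, which encloses it on the other strand, in 6 of 6 libraries, which counting without strand would not give.

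The comparison was fitted with edgeR 4.0.16 (R 4.3.3): TMM scaling, genes with at least 1 cpm in at least 3 libraries, and the quasi-likelihood test without covariate, with Benjamini-Hochberg adjustment over all 13166 tested genes. Groups came from the sample titles. The base of the fold change threshold of the study (1.5) was not stated and was taken as log2. A gene was called at an adjusted p under 0.05. P values measure the spread between these libraries only. Depth was 18386780 to 28459338 counts.

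The members and the lists were chosen with earlier results of these data known. The text names the members, Mettl7a1, the eIF2 kinases, the paralogs, the flanking genes, the 3 genes closest to Atf4 and to Ddit3 and, of each other list, up to 3 genes with the largest rise and 3 with the largest fall among those called with a mean of at least 50 counts. Genes listed for a promoter match are named for it. Alternatives were RLE and upper quartile scaling, other abundance filters, DESeq2 1.42.0, voom of limma 3.58.1, a block for replicate number, each library left out, removal of the 20 most abundant genes, and subtraction of the median of the neighbours, taken over the log2 fold changes of the 40 nearest genes with an average log2 cpm over 2. The fits were first tested on simulated data. Promoter windows came from RefSeq.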

Additional observations from a re-analysis of the deposited data

How the results depend on the processing

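All 10 members were called higher in the main analysis and in each of the 15 alternatives. Over all 13166 tested genes, 2778 were called higher in the main analysis, 2463 with the replicate block and 2384 with the neighbours subtracted. As the members were listed for this difference, their count describes the list and nothing is read from it. The median log2 fold change of the members lay between 1.78 (without METTL7A1 replicate 2) and 1.91 (without mock replicate 2) when each library was left out. Subtracting the median of the neighbours moved 5 members, to 0.61 for Atf4, 1.87 for Ddit3, 3.29 for Chac1, 1.22 for Asns and 1.97 for Ddit4. Over all genes, 326 passed the thresholds of the study, 710 with no abundance filter and 205 with at least 10 counts in every library. With the neighbours subtracted, 8 genes were called in eIF2 phosphorylation control instead of 15, and 5 among bZIP relatives instead of 9. In the same fit, 16 amino acid targets were called instead of 21, and 11 stress and death targets instead of 10. The count was 4 instead of 6 among paralogs and 12 instead of 10 in the ATF6 and XBP1 arm. These are counts per fit, and a gene called in one fit need not be called in the other. In the fits that leave out 1 library, the bZIP count was 3 to 8. With the neighbours subtracted, Sesn1 (0.017) and Sel1l (0.186) changed sign. For the 30 genes named from the lists, the 15 alternatives gave 425 values with the same direction and call, 22 that lost the call, 1 that gained it and 2 that changed sign. The cause of these changes was not tested, except that the filters change which genes are tested.

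Replicate numbers did not pair the libraries: the deviations of same-numbered libraries from their group means correlated at −0.15, 0.20 and −0.37. With the replicate block, 4808 genes were called instead of 5536, the bZIP count was 6, Cebpd and Atf6b were not called (edgeR adjusted p = 0.0843 and 0.0554), and no gene was called lower among the stress and death targets. Genes with a few counts per library, such as Gdf15 and Fgf21, were tested only without the abundance filter.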
